A study of Mus musculus with 6 samples.

Results

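The genes described here carry glucose and monocarboxylates across the membranes of the cells of the blood–brain barrier. They are 5 glucose carriers of the Slc2 (GLUT) family, *Slc2a1*, *Slc2a3*, *Slc2a4*, *Slc2a8* and *Slc2a10*, 4 carriers of the Slc16 (MCT) family, *Slc16a1*, *Slc16a3*, *Slc16a4* and *Slc16a7*, and *Bsg* (basigin, CD147), the partner protein of several MCTs. They were taken by gene symbol, and all 10 were found among the 23183 symbols of every library. All 10 had a mean of at least 1 FPKM, the deposited unit of read pairs scaled to transcript length and library size, over the 6 libraries and were tested.

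Microvessels were isolated from the brain of 3 TEKCRIF1 WT and 3 TEKCRIF1 KO mice on a C57BL/6 background, and the RNA of each mouse gave 1 library. KO mice carried TEK-cre and *Crif1* flox/flox, with the floxed gene on both alleles, and WT mice carried the same TEK-cre with *Crif1* +/+. No treatment was given to either group, and the age and sex of these mice are not given in the sources used here. The Tek promoter is active in endothelial cells and also in part of the blood lineage, and recombination in the single cell types of the preparation was not measured here. The comparison asks whether the transporter genes of the barrier differ in level when the mitochondria of endothelial cells are impaired.

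Glucose cannot cross the tight endothelium of brain vessels between cells and enters the brain by facilitated diffusion. GLUT1, the product of *Slc2a1*, is the glucose carrier of brain endothelium and of astrocytes, and GLUT3, the product of *Slc2a3*, is the carrier of neurons. Lactate, pyruvate and ketone bodies cross by MCTs, which move a monocarboxylate together with a proton. MCT1, the product of *Slc16a1*, is the form of brain endothelium, and MCT1 and MCT4 need basigin to reach the cell membrane.

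Values of the replicates are given below in the order 1, 2, 3 of the titles. The depth was estimated from the spacing of the smallest FPKM values and annotated transcript lengths, and lay between 6400920 and 11735900 fragments. A floor of 3 fragments for a 1 kb transcript was then 0.256 to 0.469 FPKM, depending on the estimated depth of the library. The targeted gene *Crif1* (*Gadd45gip1*) had 16.9 ± 1.76 FPKM in WT and 9.57 ± 1.78 FPKM in KO mice (mean ± SD, 3 per group). Each KO value lay below the WT values, as for 5.70% of all genes. The log2 fold change of *Crif1* was −0.77 (unadjusted p = 0.00534 and adjusted p = 0.841 from limma, exact permutation p = 0.1). The paper also reports less *Crif1* mRNA by qPCR and less Crif1 protein by Western blot in KO mice. All 10 endothelial markers were present in every library at 21.2 FPKM or more, with a summed level of 906 to 1254 FPKM across WT and 802 to 1044 FPKM across KO mice. Of the 10, 3 had a log2 fold change above 0 and 7 below it (median −0.15), and 1 had an unadjusted p under 0.05, beside 5.88% of all genes. That 1 was *Cdh5*, the cadherin of endothelial junctions, with 90.1 ± 3.02 FPKM in WT and 43.8 ± 6.42 FPKM in KO mice (mean ± SD, 3 per group, limma adjusted p = 0.841). Markers of other cell types were present too. The 6 markers of choroid plexus epithelium, which secretes cerebrospinal fluid, summed to 3346, 2936 and 2885 FPKM in the WT libraries, against 8872, 2982 and 10679 FPKM in the KO libraries. KO 1 and KO 3 therefore stood apart from the other 4 libraries, and KO 2 did not. Fewer cells of a type and less RNA per cell cannot be told apart in these bulk samples.

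In WT mice the members spanned from 1.73 to 2343 FPKM in their means. *Bsg* was the highest, *Slc2a1* and *Slc16a1* followed at nearly the same level, and the other 7 genes lay at or below 12.4 FPKM. The WT ranges of *Slc2a1* and *Slc16a1* overlapped, as did those of *Slc16a4* and *Slc2a8*, of *Slc2a3* and *Slc2a4*, and of neighbours among *Slc2a10*, *Slc16a3* and *Slc16a7*. No overlap was found in WT mice between *Bsg* and *Slc2a1*, between *Slc16a1* and *Slc16a4*, between *Slc2a8* and *Slc2a3*, or between *Slc2a4* and *Slc2a10*. In KO mice the order was the same for *Bsg*, for *Slc16a4*, *Slc2a8*, *Slc2a3* and *Slc2a4*. *Slc16a1* stood above *Slc2a1* there and the order of the 3 lowest genes was reversed, in both cases with overlapping ranges. In KO mice a gap remained only below *Bsg* and below *Slc2a1*. FPKM values are per length of the gene model, so levels of different genes also depend on the models that the authors used.

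**Figure D1:**
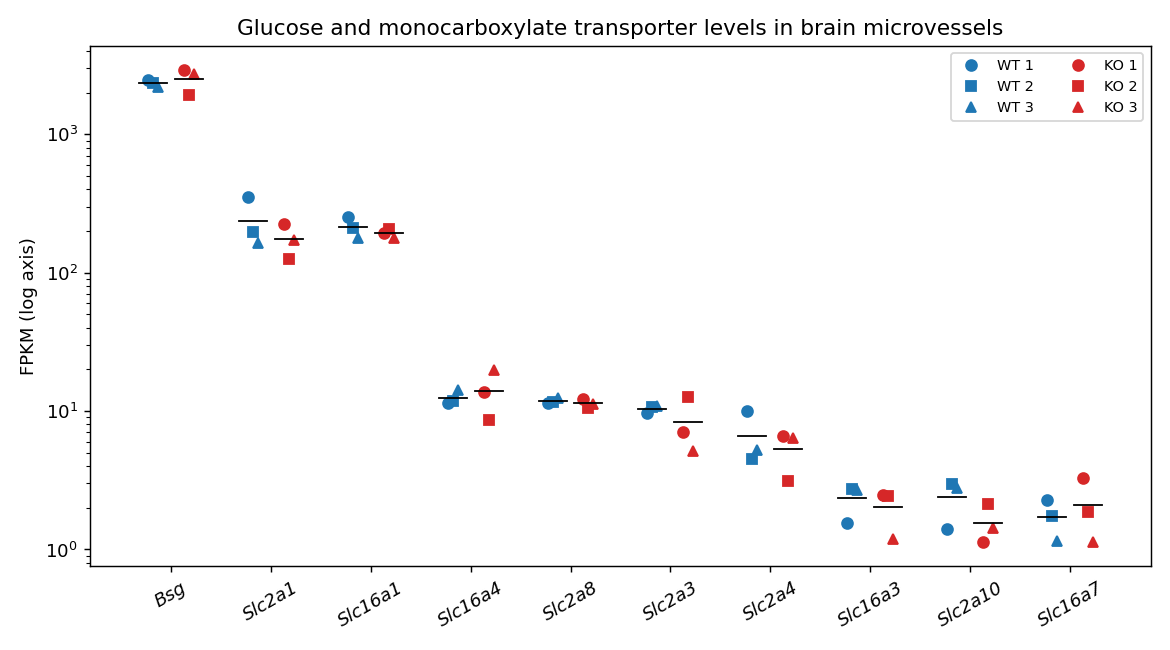
FPKM of the 10 genes in each library on a log axis, with WT mice in blue, KO mice in red, a marker shape for each replicate number and a black line at each group mean. Group means are 2343 and 2524 FPKM for *Bsg*, 237 and 175 FPKM for *Slc2a1* and 214 and 193 FPKM for *Slc16a1*, and the WT and KO points overlap for all 10 genes.

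None of the 10 genes passed the test between KO and WT mice, and for all 10 the WT and KO values overlapped. With limma on log2(FPKM + 1), 0 of the 10 reached 0.05 after adjustment and 0 did so before it, beside 0% and 5.88% of the 14247 genes tested (0 and 838 genes, 2.77% higher and 3.11% lower in KO mice). The adjusted p-values of the 10 genes lay between 0.882 and 0.983, and the smallest over all genes was 0.841. No overlap between the groups was found for 11.1% of all genes and for 0 of the 10. The log2 fold change was below 0 for 7 of them and above 0 for 3, with a median of −0.14 beside −0.01 over all genes, of which 50.8% were below 0. The 95% intervals of limma all included 0 and reached between 0.44 and 0.83 to either side of the estimate on the log2 scale. An exact two-sided permutation test cannot give a p below 0.1 here, and the smallest among the 10 genes was 0.3.

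**Figure D2:**
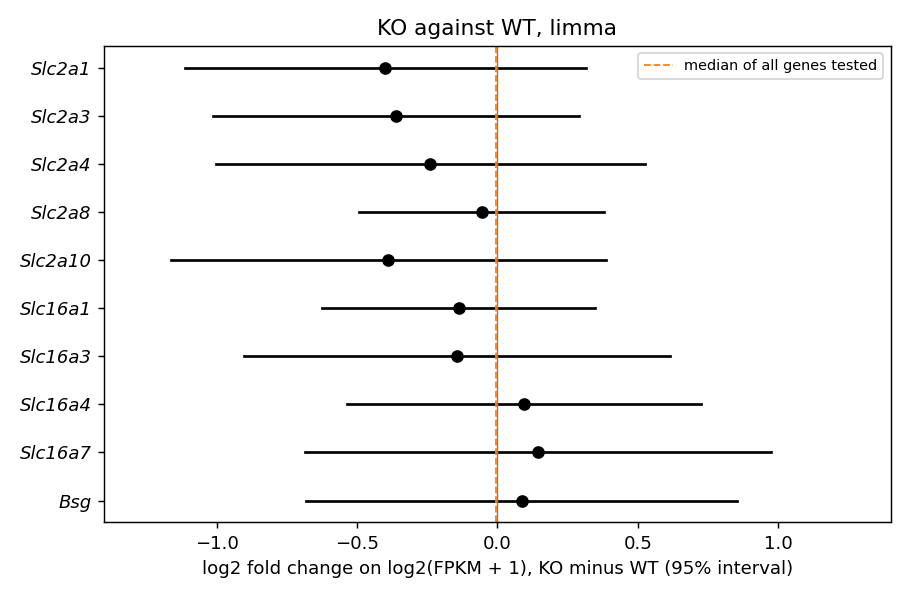
Log2 fold change of KO against WT on the log2(FPKM + 1) scale for each of the 10 genes, as a point with the 95% interval of limma, and a dashed line at the median of all genes tested (−0.01). Every interval crosses 0, and the points lie between −0.40 for *Slc2a1* and 0.14 for *Slc16a7*.

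*Slc2a1*, on chromosome 4 (GRCm38, 119108711 to 119137983, plus strand, 10 exons in its longest transcript), had 349, 197 and 164 FPKM in the WT libraries. The KO libraries gave 224, 126 and 173 FPKM. WT 1 was the highest and KO 2 the lowest, and all 3 KO values were under the WT mean, but WT 3 lay below KO 1 and KO 3. Group means were 237 ± 98.7 FPKM in WT and 175 ± 48.7 FPKM in KO mice (mean ± SD, 3 per group). Its log2 fold change was −0.40 (standard error, SE, 0.32, limma adjusted p = 0.882, exact permutation p = 0.5). The 95% interval of limma ran from −1.11 to 0.31, which spans KO levels from 0.463 to 1.24 times those of WT mice. Without WT 1 the log2 fold change was −0.08, and without WT 3 it was −0.62. *Slc2a1* made up 84.0% to 91.5% of the summed FPKM of the 5 glucose carriers in WT mice and 81.6% to 89.2% in KO mice, so it was the main transcript of this group in every library. Its locus overlaps antisense genes, and whether the counting used strand is not given in the sources used here.

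*Slc2a3*, on chromosome 6 (GRCm38, 122727809 to 122801640, minus strand), encodes the neuronal carrier, and its locus holds a processed pseudogene on the same strand, whose reads could be shared. It had 9.60, 10.6 and 10.8 FPKM in the WT libraries, against 7.11, 12.7 and 5.18 FPKM in the KO libraries. The WT mice lay close together, while KO 2 was above and KO 1 and KO 3 were below all of them. The means were 10.3 ± 0.652 FPKM and 8.33 ± 3.91 FPKM (SD, n = 3 each), and KO minus WT was −0.36 (SE 0.29, limma adjusted p = 0.885, exact permutation p = 0.4). Without KO 2 the log2 fold change was −0.68, with an unadjusted p of 0.0171 and an adjusted p of 0.288 from limma, in a fit where 13.1% of all genes had an unadjusted p under 0.05. Without KO 3 it was −0.10, with an unadjusted p of 0.714 from limma.

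The summed level of the 8 neuron markers is given beside *Slc2a3*, whose carrier neurons use. It was 243, 398 and 517 FPKM in the WT libraries, against 243, 436 and 192 FPKM in the KO libraries. Within each group the libraries had the same order by *Slc2a3* and by this sum, though not by every marker, such as *Rbfox3* and *Gad1* in WT mice. Of the 8 markers, 1 had an unadjusted p under 0.05, lower in KO mice, beside 3.11% of all genes. A log2 fold change below 0 was found for 7 of the 8, beside 50.8% of all genes. No marker was at 0, with a lowest value of 2.34 FPKM. The part of neuronal RNA in the *Slc2a3* values was not tested.

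*Slc2a4*, on chromosome 11 (GRCm38, 69942539 to 69948188, minus strand), encodes GLUT4, the insulin-responsive carrier of muscle and fat. Its values were 9.95, 4.52 and 5.25 FPKM in the WT libraries, against 6.61, 3.11 and 6.36 FPKM in the KO libraries. The highest was again WT 1 and the lowest KO 2, as for *Slc2a1*. Its log2 fold change was −0.24 (SE 0.34, limma adjusted p = 0.949, exact permutation p = 0.6), and it was 0.06 without WT 1 and 0.05 without KO 2. The 6 smooth muscle markers summed to 861, 394 and 414 FPKM in the WT libraries, against 1081, 419 and 596 FPKM in the KO libraries. Within each group *Slc2a4* and this sum put the libraries in the same order. Between the groups the directions were opposite, since all 6 markers had a log2 fold change above 0 (median 0.38). None of the 6 had an unadjusted p under 0.05 and the lowest value was 1.63 FPKM. Their part in the *Slc2a4* values was not tested.

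*Slc2a8*, on chromosome 2 (GRCm38, 32972990 to 32982083, minus strand), encodes GLUT8, which sits mostly on membranes inside the cell. It varied least of the 10 genes, with 11.4, 11.7 and 12.5 FPKM in the WT libraries, against 12.3, 10.5 and 11.3 FPKM in the KO libraries. The highest value was 1.18 times the lowest, and the coefficient of variation was 4.75% among WT and 7.74% among KO mice. Its log2 fold change was −0.06 (SE 0.20, 95% interval of limma −0.49 to 0.38, adjusted p = 0.979).

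*Slc2a10*, also on chromosome 2 (GRCm38, 165503787 to 165519917, plus strand), encodes GLUT10 and was among the lowest of the members. It had 1.42, 2.95 and 2.80 FPKM in the WT libraries, against 1.14, 2.12 and 1.42 FPKM in the KO libraries. WT 2 and WT 3 were above every KO mouse, and WT 1 lay among the KO mice. This gave a log2 difference of −0.39 (SE 0.35, limma adjusted p = 0.899, exact permutation p = 0.3), which was −0.62 without WT 1 and −0.26 without WT 2. Because the levels are near 1 FPKM, the log2(FPKM + 1) scale understates the change. The values rest on an estimated 32 to 113 fragments per library.

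*Slc16a1*, on chromosome 3 (GRCm38, 104638668 to 104658462, plus strand, 5 exons), encodes MCT1. Its values were 253, 212 and 179 FPKM in the WT libraries, against 195, 208 and 177 FPKM in the KO libraries. The KO mice lay within a narrow band at or below the WT mean, and WT 3 was among them. The means were 214 ± 37.1 FPKM in WT and 193 ± 15.6 FPKM in KO mice (mean ± SD, 3 per group). On the log2 scale KO minus WT was −0.14 (SE 0.22, 95% interval of limma −0.62 to 0.35, adjusted p = 0.950, exact permutation p = 0.4). That interval spans KO levels from 0.649 to 1.27 times those of WT mice. Of the summed FPKM of the 4 MCT genes, *Slc16a1* made up 88.9% to 94.3% in every library.

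The ratio of *Slc2a1* to *Slc16a1* within a library does not depend on scaling between libraries. It was 1.38, 0.930 and 0.920 in the WT libraries, against 1.15, 0.607 and 0.980 in the KO libraries. WT 1 had the highest ratio and KO 2 the lowest, and the groups overlapped.

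*Slc16a3*, on chromosome 11 (GRCm38, 120948480 to 120960868, plus strand), encodes MCT4, the lactate-exporting form of glycolytic cells and of astrocytes. It had 1.55, 2.76 and 2.71 FPKM in the WT libraries, against 2.49, 2.43 and 1.20 FPKM in the KO libraries. WT 1 and KO 3 were the low libraries, 1 in each group. KO minus WT was −0.14 on the log2 scale (SE 0.34, limma adjusted p = 0.966), and 0.07 without KO 3. The MCT1 gene exceeded the MCT4 gene by between 66.0 and 163 times in FPKM within a library. The 8 astrocyte markers summed to 749, 628 and 696 FPKM in the WT libraries, against 495, 533 and 527 FPKM in the KO libraries. These sums did not overlap between the groups, and among single genes 5.70% had every KO value below every WT value. Of the 8 markers, 2 had an unadjusted p under 0.05, both lower in KO mice, beside 3.11% of all genes, and 0 passed adjustment. The lowest astrocyte marker value was 11.6 FPKM. Their part in the *Slc16a3* and *Slc2a1* values was not tested.

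*Slc16a7*, on chromosome 10 (GRCm38, 125219270 to 125389465, minus strand), encodes MCT2, the high-affinity form of neurons. Its values were 2.29, 1.73 and 1.16 FPKM in the WT libraries, against 3.28, 1.87 and 1.13 FPKM in the KO libraries. KO 1 was the highest and KO 3 the lowest, so the KO mice enclosed all WT mice. KO minus WT came to 0.14 on the log2 scale (SE 0.37, limma adjusted p = 0.969), and −0.12 without KO 1. By the neuron marker sum the WT mice had the reverse order, and KO 3 was the lowest KO mouse by both.

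*Slc16a4*, on chromosome 3 (GRCm38, 107291230 to 107312115, plus strand), encodes a member of the family whose substrates are less well known. It had 11.4, 11.8 and 14.1 FPKM in the WT libraries, against 13.8, 8.56 and 19.7 FPKM in the KO libraries. The KO mice were again more widely spread than the WT mice, with KO 3 above and KO 2 below all other libraries. The difference was 0.10 on the log2 scale (SE 0.28, limma adjusted p = 0.973), −0.17 without KO 3 and 0.39 without KO 2 (unadjusted p = 0.122, adjusted p = 0.508 from limma). KO 3 also had the highest choroid plexus sum and KO 2 the lowest of the KO mice, while in WT mice the order by *Slc16a4* was the reverse of that by this sum. The part of choroid plexus RNA in the *Slc16a4* values was not tested.

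*Bsg*, on chromosome 10 (GRCm38, 79704491 to 79711969, plus strand), was at the 99.95th percentile of the genes tested by mean level. It had 2471, 2356 and 2203 FPKM in the WT libraries, against 2929, 1933 and 2709 FPKM in the KO libraries. KO 1 and KO 3 were above and KO 2 was below all WT mice. The means were 2343 ± 135 FPKM and 2524 ± 523 FPKM (SD, n = 3 each), and KO minus WT was 0.09 (SE 0.34, 95% interval of limma −0.68 to 0.85, adjusted p = 0.983, exact permutation p = 0.7). Without KO 2 it was 0.27 (unadjusted p = 0.130, adjusted p = 0.517 from limma), and 2 of the 10 genes, *Bsg* and *Slc2a3*, then had no overlap between the groups, as did 30.7% of all genes. *Bsg* exceeded *Slc16a1* by between 9.29 and 15.3 times in FPKM, with the highest ratios in KO 1 and KO 3. Both libraries also had the high choroid plexus sums, whose part in the *Bsg* values was not tested.

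The calls with 1 library left out are given beside the share of all genes called in the same way. At an unadjusted p under 0.05 stood 1 of the 10 without KO 2 (13.1% of all genes) and 0 in the other 5 fits, where the share of all genes was 4.65% without WT 1, 3.16% without WT 2, 4.90% without WT 3, 3.58% without KO 1 and 6.97% without KO 3. Groups without overlap were found for *Slc2a10* and *Slc16a3* without WT 1 (20.5% of all genes), *Bsg* and *Slc2a3* without KO 2 (30.7%), *Slc16a1* without WT 3 (20.8%) and *Slc2a8* without KO 1 (17.8%), and for 0 of the 10 without WT 2 (16.9%) or KO 3 (23.6%).

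The spread within a group is shown by the coefficient of variation. For *Bsg*, *Slc2a3* and *Slc16a4* it was 5.74%, 6.30% and 11.6% among WT mice, against 20.7%, 46.9% and 39.7% in KO mice. For *Slc2a8*, *Slc16a3* and *Slc16a7* it was 4.75%, 29.3% and 32.8% among WT mice, against 7.74%, 35.8% and 52.4% in KO mice. For *Slc2a1* and *Slc16a1* it was smaller in KO mice, 27.9% against 41.7% and 8.10% against 17.3%. *Slc2a4* and *Slc2a10* also had a smaller one in KO mice, 36.5% against 44.8% and 32.4% against 35.4%. The difference in spread was not tested and was not set against that of all genes.

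Levels were also set against the 10 endothelial markers, by subtracting their mean log2 level in the same library. This adds the same constant to the log2 fold change of every gene, and moved the median of all genes to 0.18. *Slc2a1* then had a log2 fold change of −0.21 (limma adjusted p = 0.868), *Slc16a1* of 0.05 (adjusted p = 0.970) and *Bsg* of 0.27 (adjusted p = 0.841). The 10 markers include *Cdh5*, which was itself lower in each KO mouse.

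The other carriers of the Slc2 and Slc16 families were examined as lists. Of the 7 other Slc2 genes, 4 were tested, 0 had an unadjusted p under 0.05, and 1 had a log2 fold change above 0 and 3 below it (median −0.13). *Slc2a12*, which encodes GLUT12, was the highest with 30.7, 24.8 and 21.6 FPKM in the WT libraries, against 29.4, 17.0 and 62.0 FPKM in the KO libraries. KO 3 was far above the other libraries, and *Slc2a12* came next after *Slc2a1* among the Slc2 genes in all 6 mice. *Slc2a7* was listed at 0 in every library. Of all 12 Slc2 genes, members included, 9 were tested and 8 had a log2 fold change below 0, beside 50.8% of all genes, while 0 had no overlap between the groups. After correction for GC content 6 of the 9 were below 0, and with a library left out 7 or 8 of them. Relative to the 10 endothelial markers 5 of the 9 were below 0, in a setting that moved the median of all genes to 0.18.

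Of the 10 other Slc16 genes, 9 were tested, 5 with a log2 fold change above 0 and 4 below it (median 0.09), and 0 had an unadjusted p under 0.05. *Slc16a8*, which encodes MCT3, the form of retinal pigment epithelium and choroid plexus epithelium, had 13.0, 11.1 and 9.64 FPKM in the WT libraries. The KO libraries gave 22.7, 7.54 and 38.4 FPKM. It was high in KO 1 and KO 3 and lower in KO 2 than in any WT mouse. Higher in mean level were *Slc16a9*, at 26.6, 23.3 and 28.0 FPKM in the WT libraries, against 19.7, 14.2 and 29.3 FPKM in the KO libraries, and *Slc16a11*, at 23.0, 31.7 and 11.5 FPKM, against 15.6, 17.9 and 17.2 FPKM. Both overlapped between the groups.

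The log2 fold change of *Slc16a8* was 0.71 (SE 0.46, limma adjusted p = 0.849). Without KO 2 it was 1.33 (limma adjusted p = 0.146), and without KO 3 it was 0.22 (adjusted p = 0.918). KO 1 and KO 3 also had the high choroid plexus sums. Of the 6 choroid plexus markers, 3 had an unadjusted p under 0.05, all higher in KO mice, beside 2.77% of all genes, and 0 passed adjustment. In 1 of the 6 every KO value was above every WT value, as for 5.37% of all genes. The lowest marker value was 15.5 FPKM. The part of this RNA in the *Slc16a8* values was not tested. *Slc16a6* had every KO value above every WT value, as did 5.37% of all genes, and was the 1 such gene of the 9 tested. It had 6.09, 4.41 and 5.42 FPKM in the WT libraries, against 6.25, 7.71 and 6.69 FPKM in the KO libraries. Its log2 fold change was 0.33 (SE 0.23, limma adjusted p = 0.859, exact permutation p = 0.1).

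**Figure D3:**
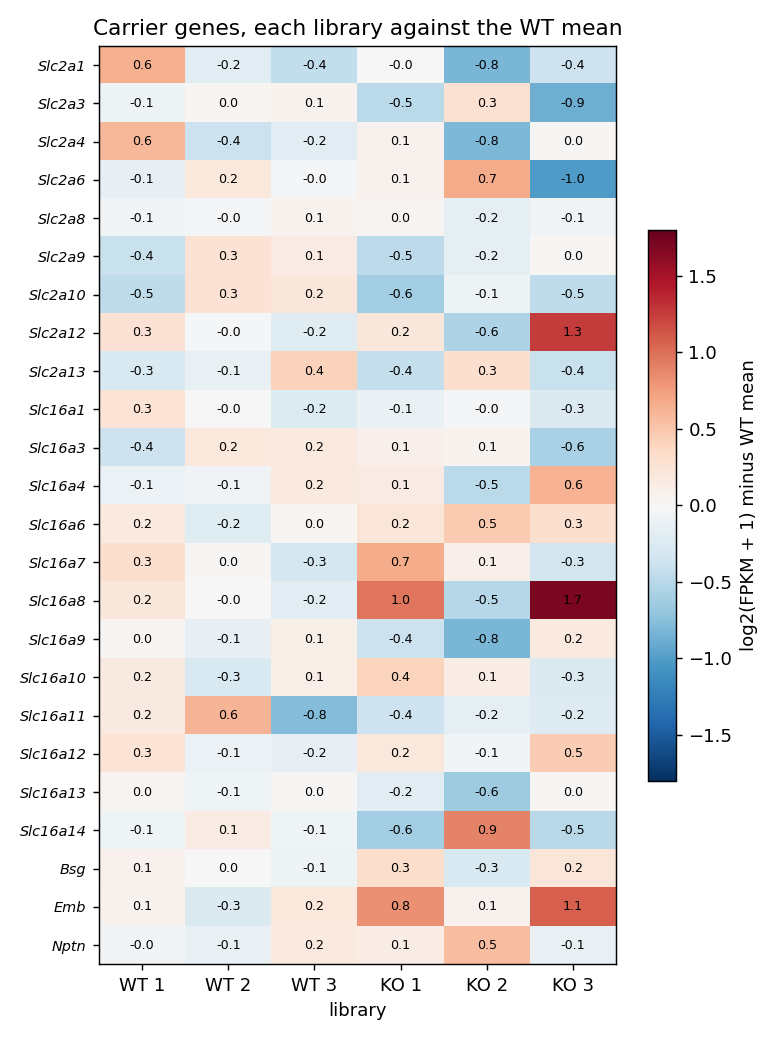
Heat map of Slc2 and Slc16 genes that were tested, *Bsg*, *Emb* and *Nptn* in the 6 libraries, as log2(FPKM + 1) minus the WT mean, with the value in each cell. The largest values shown are those of *Slc16a8* and *Slc2a12* in KO 3, while both genes are below the WT mean in KO 2.

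**Figure D4:**
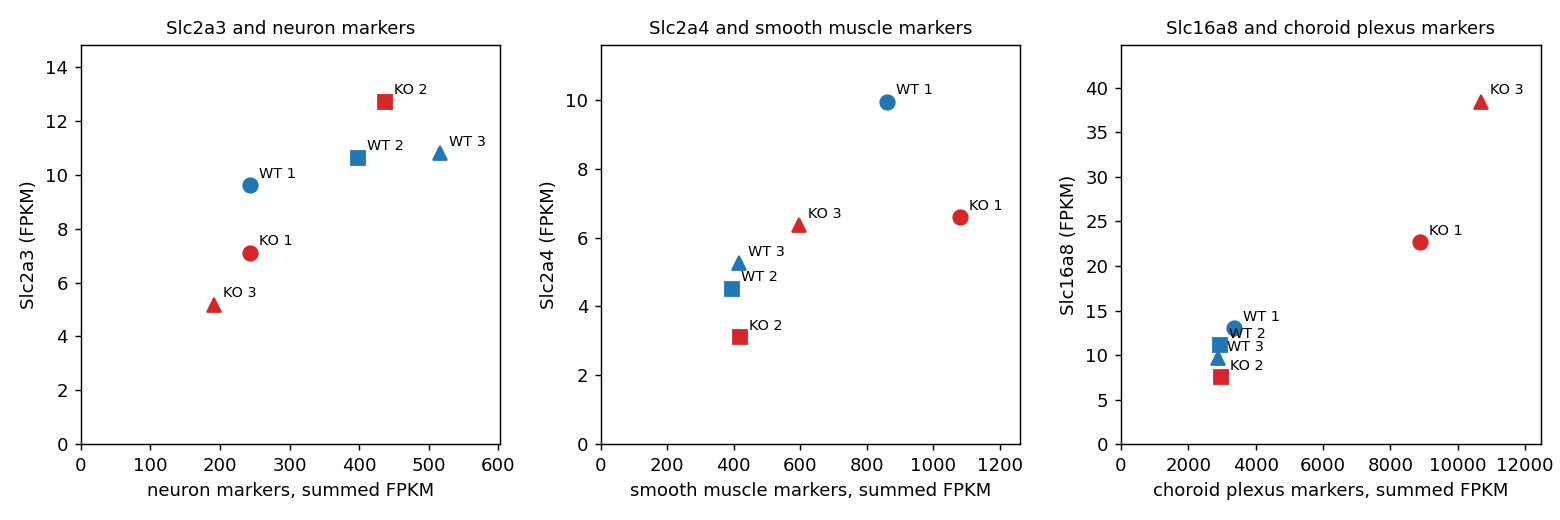
FPKM of *Slc2a3*, *Slc2a4* and *Slc16a8* (vertical axes) against the summed FPKM of the 8 neuron, 6 smooth muscle and 6 choroid plexus markers (horizontal axes), with 1 point per library, WT in blue and KO in red. *Slc16a8* and the choroid plexus sum are highest in KO 3 and KO 1, and *Slc2a3* is lowest in KO 3, where the neuron sum is 192 FPKM.

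Basigin has a pair of relatives that also escort MCTs, embigin (*Emb*) and neuroplastin (*Nptn*). *Emb* had 18.3, 14.4 and 19.9 FPKM in the WT libraries, against 31.5, 18.4 and 37.7 FPKM in the KO libraries. KO 1 and KO 3 were above every WT mouse and KO 2 lay among them. Its log2 fold change was 0.66 (SE 0.27, unadjusted p = 0.0373 and adjusted p = 0.841 from limma, exact permutation p = 0.2). *Emb* was thus 1 of the 5.88% of genes with an unadjusted p under 0.05 and did not pass adjustment. Its unadjusted p from limma was 0.0702 after correction for GC content, 0.0568 without the trend and 0.0836 without a filter. Without KO 2 its log2 fold change was 0.95 (limma adjusted p = 0.161), and without KO 3 it was 0.45 (unadjusted p = 0.140). *Nptn* had 86.8 ± 10.1 FPKM in WT and 100.2 ± 24.5 FPKM in KO mice (mean ± SD, 3 per group, limma adjusted p = 0.936). The choroid plexus sums were high in the same 2 KO libraries, and their part in the *Emb* values was not tested.

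Among 11 sodium-coupled and other sugar or monocarboxylate carriers, only 3 reached a mean of 1 FPKM. The 8 genes below it were all of the Slc5 family. *Slc50a1*, which encodes the sugar carrier SWEET1, had 28.0, 27.6 and 28.0 FPKM in the WT libraries, against 57.4, 39.8 and 33.8 FPKM in the KO libraries. Each KO mouse was above every WT mouse, as for 5.37% of all genes. Its log2 fold change was 0.60 (SE 0.22, unadjusted p = 0.0238 and adjusted p = 0.841 from limma, exact permutation p = 0.1). It was 0.39 without KO 1, with an unadjusted p of 0.102. *Slc45a4* and *Slc45a1*, a pair of proton-coupled sugar carriers, had log2 fold changes of −0.05 and −0.34 (limma adjusted p = 0.985 and 0.919).

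Of 14 genes that control the traffic or transcription of the carriers, 13 were tested, 5 with a log2 fold change above 0 and 8 below it, and 0 had an unadjusted p under 0.05. *Txnip*, whose product removes GLUT1 from the cell surface, had 185, 175 and 147 FPKM in the WT libraries, against 165, 86.9 and 143 FPKM in the KO libraries. Only KO 2 was far below the WT mice (log2 fold change −0.40, SE 0.26, limma adjusted p = 0.849). *Epas1*, the hypoxia-inducible factor most abundant in endothelium, had 123 ± 13.0 FPKM in WT and 117 ± 15.1 FPKM in KO mice (mean ± SD, 3 per group, limma adjusted p = 0.970). *Hif1a*, whose product induces *Slc2a1* and *Slc16a3* in hypoxia, had 18.7, 20.5 and 16.6 FPKM in the WT libraries, against 25.2, 21.4 and 31.1 FPKM in the KO libraries. The KO values lay above the WT values, as for 5.37% of all genes and for 1 of the 13 tested here. KO 2 was close to WT 2 (log2 fold change of *Hif1a* 0.45, SE 0.21, limma adjusted p = 0.841, exact permutation p = 0.1). After correction for GC content the difference of *Hif1a* was 0.30. The unadjusted p of limma for *Hif1a* was 0.0373 after quantile normalization and 0.0398 without a filter, and that for *Txnip* was 0.0275 after quantile normalization, with 0.763 the adjusted p of both after that normalization. Over the same libraries *Slc2a1* and *Slc16a3* had log2 fold changes of −0.40 and −0.14. Only RNA was measured here, and any part of *Hif1a* in these levels was not tested.

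For the enzymes and carriers that first use glucose, lactate and pyruvate in the cell, 6 of 6 were tested and 0 had an unadjusted p under 0.05. *Ldha* and *Ldhb*, the subunits of lactate dehydrogenase, were at 212 ± 11.8 and 166 ± 15.9 FPKM in WT mice, near the level of *Slc16a1*. In KO mice they were at 230 ± 62.2 and 208 ± 98.1 FPKM (mean ± SD, 3 per group, limma adjusted p = 0.973 and 0.958). *Hk2*, an inducible hexokinase, had 2.25, 2.50 and 1.35 FPKM in the WT libraries, against 0.498, 1.05 and 1.10 FPKM in the KO libraries. Each KO mouse was below every WT mouse, as for 5.70% of all genes (log2 fold change −0.69, SE 0.36, limma adjusted p = 0.841, exact permutation p = 0.1). At these low levels the value depends on the pseudocount, and with 0.1 in place of 1 the log2 fold change of *Hk2* was −1.14. The unadjusted p of limma for *Hk2* was 0.0872 in the main fit. It was 0.0256 without the trend (adjusted p = 0.866) and 0.0337 without a filter (adjusted p = 0.938).

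The genes most like a member over the 6 libraries were found by the root mean square difference of log2(FPKM + 1), centred on the mean of the libraries, among the 6919 genes whose mean reached 10 FPKM. Nearest to *Slc2a1* were *Il34* (difference 0.09), *Nupr1* (0.10) and *Cbr2* (0.11). *Il34* had 59.2, 38.2 and 32.4 FPKM in the WT libraries, against 37.5, 22.2 and 29.9 FPKM in the KO libraries, so WT 1 was the highest and KO 2 the lowest, as for *Slc2a1*. For *Slc16a1* they were *Wnt4* (0.05), *Rnf130* (0.05) and *Ptprb* (0.06), of which *Ptprb* encodes an endothelial receptor phosphatase. The genes nearest to *Bsg* were *Rrp15* (0.02), *Cd151* (0.03) and *Tpt1* (0.04). *Cd151*, which encodes a tetraspanin, had 88.7, 83.7 and 77.1 FPKM in the WT libraries, against 105, 65.6 and 95.9 FPKM in the KO libraries. These points share their libraries, and the likeness over 6 of them is a description only.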

How the data were processed

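Brain microvessel RNA of 3 WT and 3 KO mice was read in pairs (HiSeq X10, NEBNext Ultra II Directional libraries). The authors trimmed the reads with FASTX_Trimmer and BBMap, mapped them with TopHat, to mm10 per the submitters' processing notes, and deposited FPKM values. The program and the gene models behind these values are not given in the sources used here, and neither is a normalization between libraries nor a strand setting. The authors' DESeq2 comparison needs read counts, so limma took its place.

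The labels' genotype set the groups. On the log2(FPKM + 1) scale, limma 3.58.1 (trended variance, R 4.3.3) was fitted without further scaling to the 14247 genes whose mean reached 1 FPKM, with Benjamini-Hochberg adjustment over all of them. Nothing shows whether the mice of a group shared a litter or day, so p-values measure the spread between these libraries. For single genes a two-sided exact permutation test was run in scipy 1.17.1. The members and the gene lists were chosen with earlier results of these data known. The genes named are the members, *Crif1*, list genes of the highest mean FPKM, and the 3 nearest in pattern to *Slc2a1*, *Slc16a1* and *Bsg*. *Slc2a7*, *Slc16a6*, *Slc16a8*, *Hk2*, *Hif1a*, *Cdh5*, *Rbfox3* and *Gad1* were chosen after their values were seen. The heat map and the examples leave out 1 gene of the lists, which is counted in the totals but not reported here. At an unadjusted p under 0.05 were 3 of 6 oligodendrocyte, 1 of 6 microglia, 1 of 4 erythroid, 2 of 8 pericyte and 1 of 5 fibroblast markers, all lower in KO mice, beside 5.88% of all genes in either direction. Gene positions, lengths and GC contents came from GENCODE M21 (GRCm38), which is the mm10 assembly. The comparison was tested on simulated data. The alternatives tried were a pseudocount of 0.1, no filter, a filter at 5 FPKM, trimmed-mean, median and quantile scaling, limma without the trend, a replicate block, corrections of each library for GC content and transcript length (loess), levels relative to endothelial markers, and leaving out each library in turn.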

Additional observations from a re-analysis of the deposited data

How the results depend on the processing

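No alternative gave any of the 10 genes an adjusted p under 0.05 by limma, and *Slc2a1*, *Slc2a3* and *Slc2a10* kept a log2 fold change below 0 in each alternative that tested them. The filter at 5 FPKM left *Slc2a10*, *Slc16a3* and *Slc16a7* untested. At an unadjusted p under 0.05 there were 838 genes, and with each library left out in turn their number lay between 450 (without WT 2) and 1871 (without KO 2). It was 510 without KO 1. The number with an adjusted p under 0.05 was 1 without a filter and 0 to 4 with a library left out. Among the 10 genes, 0 to 1 had an unadjusted p under 0.05 with a library left out, and 0 to 2 had no overlap between the groups. The 2 without WT 1 were *Slc2a10* and *Slc16a3*, where 20.5% of all genes had no overlap.

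The direction of small differences depended on the setting, and the cause was not tested. The log2 fold change of *Bsg* was −0.15 after quantile normalization and −0.03 without KO 1. With each library left out *Slc2a1* ranged from −0.62 to −0.08, *Slc2a3* from −0.68 (without KO 2) to −0.10 (without KO 3), *Slc2a10* from −0.62 (without WT 1) to −0.26 (without WT 2), *Slc16a1* from −0.26 (without WT 3) to −0.01 (without WT 1), *Bsg* from −0.032 to 0.27, *Slc2a4* from −0.43 to 0.061, *Slc16a3* from −0.33 to 0.074, *Slc16a4* from −0.17 to 0.39 and *Slc16a7* from −0.12 to 0.38. After correction for GC content *Slc2a8* was at 0.12, *Slc16a4* at −0.058 and *Slc16a7* at −0.058, while *Bsg* was at 0.23, *Slc16a1* at −0.27, *Slc2a4* at −0.15 and *Slc16a3* at −0.016. Scaling to the endothelial markers adds 1 constant to all genes, whose median it moved to 0.18, and this uniform shift put *Slc2a8* at 0.13, *Slc16a1* at 0.050 and *Slc16a3* at 0.044. *Slc2a4* was at 0.06 without WT 1 and 0.05 without KO 2, *Slc16a7* at −0.01 without WT 3 and −0.12 without KO 1, *Slc16a3* at 0.07 without KO 3 and *Slc16a4* at −0.17 without KO 3.

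The replicate numbers are those of the titles, while the column headers of the files carry other mouse numbers. The title numbers were not taken to pair the mice, since the deviations of same-numbered libraries correlated at 0.04, 0.03 and 0.002 across genes. With the replicate block 871 genes had an unadjusted p under 0.05, 0 passed adjustment and 0 of the 10 genes were called. The block cannot move a fold change in this balanced design, and *Slc2a1* was at −0.40 with an unadjusted p of 0.164 by limma. For genes near 1 FPKM the depth limits precision, with an estimated 32 fragments for *Slc2a10* in the lowest library.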
